A study of Mus musculus with 6 samples.

Results

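Adventitial fibroblast marker genes were followed in RNA from cultured mouse aortic smooth muscle cells given the cytokine TWEAK or vehicle. The 8 genes, chosen by symbol, were Dpt, Pi16, Cd34, Ly6a, Clec3b, Scara5, Gsn and Smoc2, and all 8 were among the 14927 genes of the deposited table. The TWEAK group held 3 libraries of wild-type C57BL/6 cells treated with 100 ng/mL recombinant TWEAK for 24 h, and the vehicle group held 3 libraries of the same cells treated with vehicle for 24 h. All cells came from thoracic aorta that was freed of adhering fat and connective tissue by dissection and digested with collagenase. They were used at passages 3 to 7 and held in 0.5% serum for 24 h before treatment and also during it. Libraries of each group carry the numbers 1 to 3, called experiments in the column names of the table. Whether the experiments used separate animals is not stated, so the spread behind the p-values may be technical. In the main tests that spread is what remains once treatment and experiment are both fitted. It reflects how far the difference between TWEAK and vehicle varied from experiment to experiment. Recovered reads per library ranged from 62632273 to 82118717 in the TWEAK group and from 63727655 to 75999571 in the vehicle group.

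The adventitia is the outer layer of the artery, a loose collagen-rich tissue whose fibroblasts make matrix and house progenitor-like cells. Fibroblasts of this layer are recognised by genes such as Pi16, Dpt, Cd34 and Ly6a, although none of these is exclusive to them: Cd34 and Ly6a are also made by endothelial cells, and Gsn by smooth muscle cells. TWEAK, encoded by Tnfsf12, belongs to the same cytokine family as tumour necrosis factor and acts on cells through the receptor Fn14.

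Within experiments, 3 of the 8 genes changed with TWEAK: Dpt rose 3.12-fold, Pi16 fell 2.54-fold and Gsn fell 1.27-fold. The other 5, Cd34, Ly6a, Scara5, Smoc2 and Clec3b, did not pass the test between treatments. The level of each ranged more widely over the 3 experiment means than it differed between TWEAK and vehicle, as was so for 81.2% of all genes. Among experiments 5 of the 8 genes differed, close to the 48.6% of all genes that did: Cd34, Ly6a, Scara5, Smoc2 and Dpt, the last of which was thus called in both comparisons. Clec3b passed neither test, but the one among experiments passed under some other settings. The test was limma on log2(normalized count + 1) with the experiment number as a block, with a Benjamini-Hochberg adjusted p under 0.05 over all 14927 genes as the threshold. Normalized counts are the authors' reads per gene after scaling each library by its size factor, and fold changes on this scale understate the change of low genes.

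**Figure D1:**
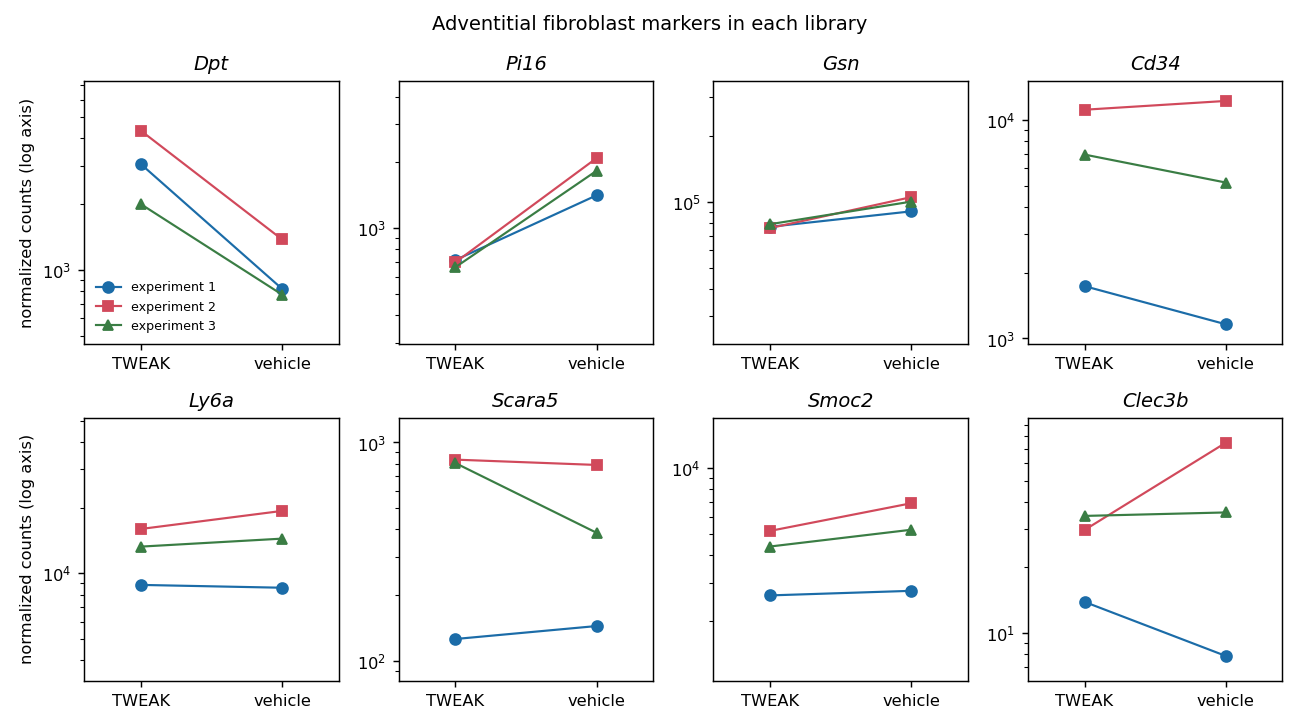
Normalized counts (log axis, each panel spanning the same fold) of the 8 marker genes in the TWEAK and vehicle libraries, with a line joining the libraries of each experiment. Lines slope steeply for Dpt and Pi16, slope slightly for Gsn, and lie far apart for Cd34 and Scara5, where the library of experiment 1 was at 1736 normalized counts of Cd34 with TWEAK and 1161 with vehicle.

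The share of all genes called between treatments was 13.7%, with 8.11% called and higher and 5.55% called and lower. Against this, 1 of the 8 markers was called and higher and 2 were called and lower. The TWEAK and vehicle values did not overlap for 3 of the 8 markers, the same 3, and for 16.0% of all genes. Without the experiment as a block, limma called 0 of the 8 and 0.0201% of all genes, which were 3 genes. At an unadjusted p under 0.05 the same fit had 3 of the 8 markers, beside 1480 of all 14927 genes. The authors' deposited table, made with DESeq2, has 2702 of its 14927 genes at an adjusted p under 0.05. Of the 8 markers it has 3: Dpt (5.2e-29), Pi16 (9.78e-16) and Gsn (0.00771).

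Dpt encodes dermatopontin, a small matrix protein that binds decorin and helps collagen fibrils assemble. It had 3047, 4333 and 1998 normalized counts with TWEAK in experiments 1, 2 and 3, against 818, 1376 and 770 with vehicle. Every TWEAK library lay above every vehicle library. The means were 3126 ± 1170 with TWEAK and 988 ± 337 with vehicle (SD, n = 3 each). The log2 fold change was 1.64 (SE 0.12, 95% interval 1.35 to 1.94, limma adjusted p = 0.00340; 0.181 unpaired), and 1.31% of all genes changed by at least as much in either direction. Within experiments the ratio of TWEAK to vehicle was 3.73, 3.15 and 2.60. Dpt was thus higher with TWEAK in all 3 experiments, and the call was lost only without the block among the 14 alternatives tried.

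Pi16 encodes peptidase inhibitor 16, a membrane-anchored protein of the CAP family that marks fibroblasts of the adventitia and of other loose connective tissue. It moved the other way, with 715, 698 and 663 normalized counts with TWEAK in experiments 1, 2 and 3, against 1416, 2096 and 1834 with vehicle. All 3 TWEAK libraries lay below all 3 vehicle libraries, and the TWEAK values lay within 1.08-fold of each other where the vehicle values spanned 1.48-fold. The means were 692 ± 26.5 with TWEAK and 1782 ± 343 with vehicle (SD, n = 3 each). The log2 fold change was -1.35 (SE 0.14, 95% interval -1.69 to -0.999, limma adjusted p = 0.00604; 0.0823 unpaired). The log2 ratios in the 3 experiments were -0.98, -1.59 and -1.47. As for Dpt, the call was lost only without the block.

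Gsn encodes gelsolin, which severs and caps actin filaments in cells and is also secreted. It had 76766, 75718 and 78911 normalized counts with TWEAK in experiments 1, 2 and 3, against 90363, 104967 and 100107 with vehicle. The groups did not overlap, but the change was small. The means were 77132 ± 1627 with TWEAK and 98479 ± 7437 with vehicle (SD, n = 3 each), and the log2 fold change was -0.35 (SE 0.06, 95% interval -0.50 to -0.20, limma adjusted p = 0.0219; 0.225 unpaired). This call was lost without experiment 1 (limma adjusted p = 0.0551), without experiment 3 (0.0967), with cyclic loess scaling (0.0828) and with no trend and no robust fit (0.0922), each time in the same direction. Of all genes, 26.1% changed by at least as much as Gsn.

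**Figure D2:**
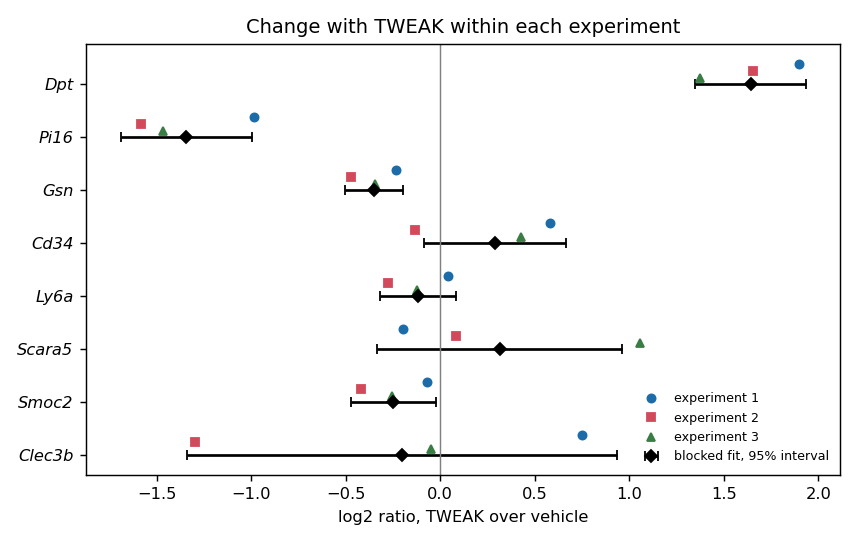
Log2 ratio of TWEAK over vehicle for each marker gene (rows) in each experiment (coloured symbols) and from the blocked limma fit (black diamonds, with 95% intervals). The intervals of Dpt, Pi16, Gsn and Smoc2 lie on 1 side of zero, that of Smoc2 narrowly (-0.47 to -0.02), and those of Cd34, Ly6a, Scara5 and Clec3b cross it.

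The regions around the transcription starts of the genes with the largest rise and the largest fall are given here because these markers of 1 cell type moved in opposite directions. Each covers 250 bases before to 50 bases after a start, from RefSeq on build GRCm38.p6, plus strand: chr1:164796413-164796712 for Dpt and chr17:29318632-29318931 for Pi16. The windows are taken from the reference and not from the libraries. Capitals mark matches, on either strand, to 4 motifs: the gamma-interferon-activated site bound by STAT factors (TTCNNNGAA), the core of the interferon-stimulated response element (TTCNNTTTC), the AP-1 site (TGANTCA) and the start of an NF-kB consensus (GGGNNTTTC).
Dpt: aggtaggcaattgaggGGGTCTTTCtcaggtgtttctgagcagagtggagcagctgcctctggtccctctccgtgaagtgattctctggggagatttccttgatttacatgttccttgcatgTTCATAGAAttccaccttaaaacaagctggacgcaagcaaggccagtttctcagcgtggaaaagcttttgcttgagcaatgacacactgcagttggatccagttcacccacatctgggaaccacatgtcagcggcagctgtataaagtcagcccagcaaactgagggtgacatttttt
Pi16: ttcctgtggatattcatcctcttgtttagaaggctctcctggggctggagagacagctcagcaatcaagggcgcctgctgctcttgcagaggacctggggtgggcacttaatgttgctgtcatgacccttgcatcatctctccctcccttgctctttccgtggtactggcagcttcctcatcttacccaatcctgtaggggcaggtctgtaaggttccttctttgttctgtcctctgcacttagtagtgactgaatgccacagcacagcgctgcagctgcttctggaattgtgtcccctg

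The Dpt window held the activated-site letters at -128 to -120 from the start and the NF-kB start at -234 to -226, which do not overlap. Of 32851 windows of the same length, 8.30% held the activated-site letters on either strand, 8.56% the interferon-response core, 7.81% the AP-1 letters and 4.36% the NF-kB start. With the C that follows in a fuller NF-kB form, 1.63% of all windows and none of the markers' windows held it. NF-kB forms with other letters were not searched and are not in capitals. The Pi16 window held none of the 4. Of the other markers, the Cd34 window and all 3 Gsn windows held none, and windows of Ly6a, Clec3b, Scara5 and Smoc2 were not used here. A match of letters is a description, and no match says only that these letters are not in this window.

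Cd34, a sialomucin on the surface of blood progenitors, endothelial cells and adventitial fibroblasts, had the widest difference among experiments. It had 1736, 11133 and 6942 normalized counts with TWEAK in experiments 1, 2 and 3, against 1161, 12213 and 5168 with vehicle. In both arms experiment 1 was lowest and experiment 2 highest, and the treatment groups overlapped. With treatment in the model, experiment 2 exceeded experiment 1 by 3.04 on the log2 scale (SE 0.18, limma adjusted p = 0.000653), an 8.21-fold difference. Experiment 3 exceeded experiment 1 by 2.08 (SE 0.18, adjusted p = 0.00428) and differed from experiment 2 by -0.96 (SE 0.18, adjusted p = 0.0184). The log2 fold change with TWEAK was 0.29 (95% interval -0.09 to 0.67, limma adjusted p = 0.256), with ratios of 1.49, 0.912 and 1.34. Without experiment 2 it was 0.50 and was called (limma adjusted p = 2.06e-05), from 2 pairs.

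Scara5, a scavenger receptor that takes up ferritin in the mouse, had 126, 835 and 805 normalized counts with TWEAK in experiments 1, 2 and 3, against 145, 789 and 386 with vehicle. Experiment 1 was again far below the others, by 2.58 on the log2 scale against experiment 2 (SE 0.31, limma adjusted p = 0.00296). Between treatments the log2 fold change was 0.31 (95% interval -0.33 to 0.96, limma adjusted p = 0.451). Experiment 3 had a ratio of TWEAK to vehicle of 2.09 where experiments 1 and 2 had 0.872 and 1.06, and without experiment 3 the log2 fold change was -0.06.

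Ly6a encodes Sca-1, a lipid-anchored surface protein that marks adventitial progenitor cells in the mouse and is inducible by interferon there. It had 8860, 15971 and 13262 normalized counts with TWEAK in experiments 1, 2 and 3, against 8600, 19320 and 14428 with vehicle. The order of the experiments was the same in both arms, and the groups overlapped. Experiment 2 was 2.01-fold above experiment 1 (log2 difference 1.01, SE 0.10, limma adjusted p = 0.00157), while the log2 fold change with TWEAK was -0.12 (95% interval -0.32 to 0.09, limma adjusted p = 0.379). It was -0.20 without experiment 1 and -0.039 without experiment 2, and was not called in either.

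Smoc2, a secreted calcium-binding matricellular protein related to SPARC, had 2619, 5166 and 4383 normalized counts with TWEAK in experiments 1, 2 and 3, against 2748, 6915 and 5231 with vehicle. It was lower with TWEAK in each experiment, by a little in experiment 1 and more in the others, with log2 ratios of -0.07, -0.42 and -0.26. The log2 fold change was -0.25 (SE 0.09, 95% interval -0.47 to -0.02, limma adjusted p = 0.134). Among the alternatives it passed only after a correction for GC content and length (log2 fold change -0.33, limma adjusted p = 0.0316). Experiment 2 exceeded experiment 1 2.23-fold (limma adjusted p = 0.00144).

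Clec3b encodes tetranectin, a secreted lectin that binds plasminogen, and was close to the low end of the table. It had 16, 33 and 31 reads with TWEAK in experiments 1, 2 and 3, against 8, 79 and 31 reads with vehicle. As normalized counts these were 13.9, 29.7 and 34.4 with TWEAK, against 7.87, 74.5 and 35.7 with vehicle. Few reads lie behind each value, and the log2 ratios were 0.75, -1.30 and -0.05. The log2 fold change was -0.20 with a 95% interval of -1.34 to 0.94 (limma adjusted p = 0.790), and it was 0.35 without experiment 2. The interval runs from 0.396-fold to 1.92-fold. Among experiments the adjusted p was 0.0527, just above the threshold, although experiment 2 against experiment 1 alone passed (log2 difference 2.06, SE 0.55, adjusted p = 0.0277). Clec3b passed the test among experiments with cyclic loess scaling (limma adjusted p = 0.0222), with DESeq2 (0.0311), with GC and length correction (limma, 0.0427), and without experiment 2 (0.0192) or experiment 3 (0.0373).

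Of the 8 markers, 5 differed among experiments by limma's F-test, where 48.6% of all genes did, so this count is close to the share of all genes. The adjusted p was 0.00141 for Cd34, 0.00306 for Smoc2, 0.00340 for Ly6a, 0.00598 for Scara5 and 0.0112 for Dpt, and it was 0.416 for Pi16 and 0.460 for Gsn. Pairwise, 6 of the 8 differed between experiments 2 and 1 (52.7% of all genes), 4 between experiments 3 and 1 (9.70%) and 3 between experiments 3 and 2 (33.1%). Those that differed between experiments 2 and 1 were all higher in experiment 2. Without experiment 1, 2 of the 8 differed, Cd34 (limma adjusted p = 0.0392) and Dpt (0.0234). The difference of Dpt among experiments was lost without experiment 2 (0.0558) and with treatment left out of the model (0.676). Gsn passed only with GC and length correction (0.0330). Levels ran in the order experiment 2, then 3, then 1 in both arms for Cd34, Ly6a, Scara5 and Smoc2, 4 of the 8, and for 20.8% of all genes.

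**Figure D3:**
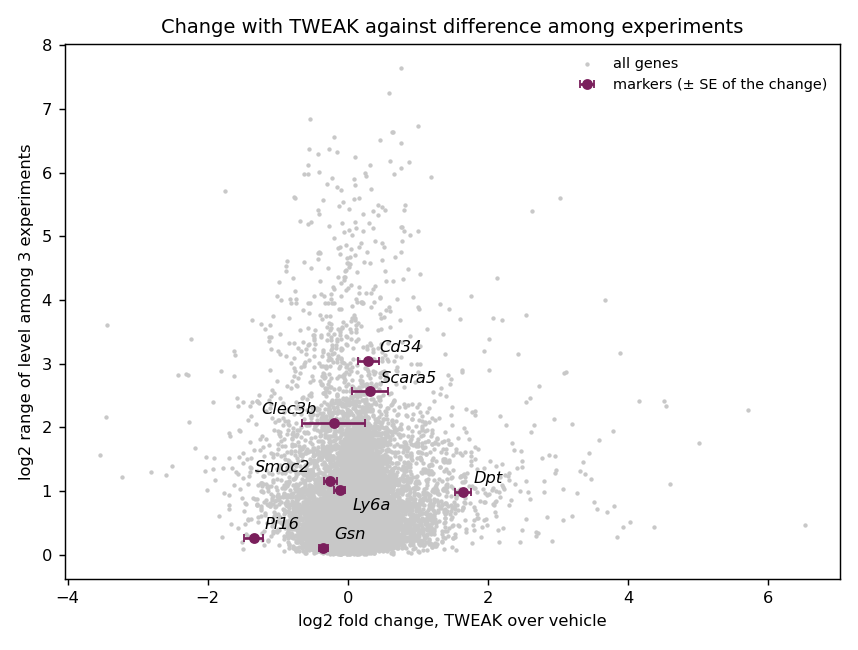
For each gene, the log2 fold change with TWEAK (horizontal axis) against the log2 range of its level among the 3 experiments (vertical axis, highest minus lowest mean over both arms), with all genes in grey and the 8 markers in purple (bars, SE of the change). Pi16 and Gsn lie low, with ranges of 0.27 and 0.10, Cd34, Scara5 and Clec3b lie high near zero change, and Dpt lies to the right at a range of 0.98.

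Set side by side, the range among experiments was 10.5 times the change with TWEAK for Cd34 on the log2 scale, 10.3 times for Clec3b, 8.57 times for Ly6a, 8.20 times for Scara5 and 4.65 times for Smoc2. For Dpt, Gsn and Pi16 the change with TWEAK was the larger, by 1.68, 3.57 and 5.07 times. Over all genes 81.2% had a wider range among experiments than change with TWEAK. The range was the highest minus the lowest of 3 experiment means, the change a difference between the TWEAK and vehicle means. With more means to spread over, the range is not like for like with the change, and the same holds for shares of the sum of squares. Of the sum of squares of Cd34 over the 6 libraries, 97.3% lay among experiments and 1.28% between treatments, and the experiment share was 95.8% for Ly6a, 92.7% for Scara5, 92.0% for Smoc2 and 80.9% for Clec3b. Pi16 had 94.1% between treatments, Gsn 87.5% and Dpt 79.4%, with 19.3% of Dpt among experiments. Over all genes the median experiment share was 73.5% and the median treatment share 12.3%. The treatment share was above the experiment share for 22.7% of all genes. The range of Cd34 among experiments was matched or exceeded by 2.24% of all genes, that of Scara5 by 3.26% and that of Clec3b by 5.86%. That of Gsn was among the narrowest, with 96.1% of genes at least as wide.

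Levels were compared between the markers as normalized counts per kilobase of exon, with exon lengths from GENCODE M21, which may differ from the annotation the authors used. With TWEAK the means were 24432 ± 515 for Gsn, 10537 ± 2978 for Ly6a, 1813 ± 678 for Dpt, 906 ± 646 for Cd34, 583 ± 188 for Smoc2, 109 ± 4.17 for Pi16, 96.6 ± 65.8 for Scara5 and 26.2 ± 10.8 for Clec3b (SD, n = 3). With vehicle the order was Gsn at 31194 ± 2356, Ly6a at 11714 ± 4454, Cd34 at 848 ± 768, Smoc2 at 714 ± 302, Dpt at 573 ± 195, Pi16 at 280 ± 53.9, Scara5 at 72.2 ± 53.5 and Clec3b at 39.7 ± 33.7 (SD, n = 3). Gsn and Ly6a stood clear of the rest and of each other in both groups. The libraries of Cd34, Smoc2 and Dpt overlapped with vehicle, as did those of Dpt and Cd34 and of Cd34 and Smoc2 with TWEAK. Scara5 overlapped Clec3b in both groups, and Pi16 overlapped Scara5 with TWEAK and Cd34 with vehicle.

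**Figure D4:**
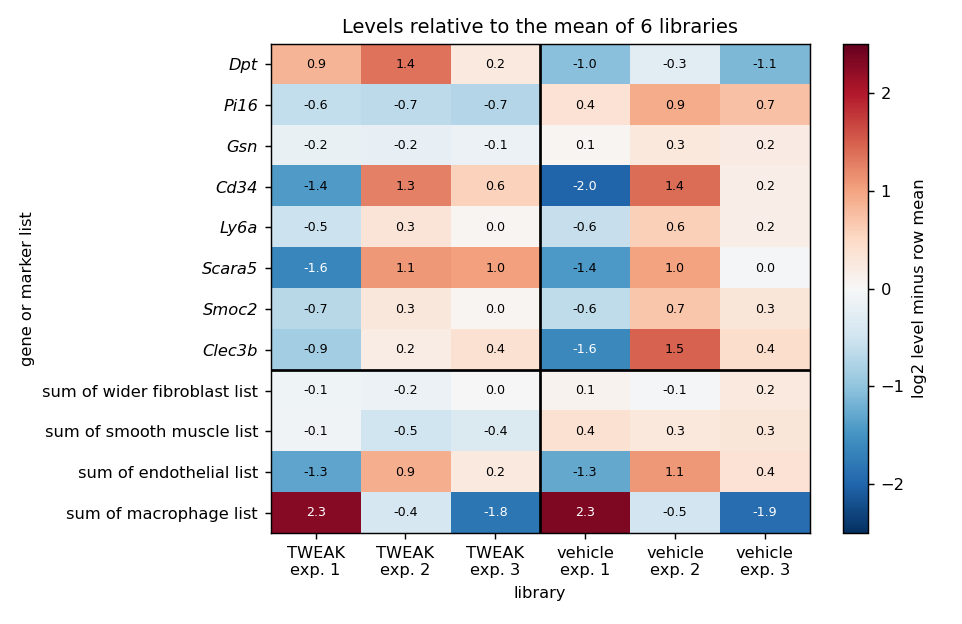
Log2 level of each marker gene, and of the summed normalized counts of 4 marker lists, minus the row's mean over the 6 libraries (columns). Cd34, Ly6a, Scara5, Smoc2 and the endothelial sum are blue in both libraries of experiment 1, the macrophage sum is red there, and Dpt and Pi16 are split by treatment.

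Markers of other cell types also differed among experiments. The 20 endothelial genes summed to 22422, 104462 and 66085 normalized counts with TWEAK in experiments 1, 2 and 3, against 22904, 119189 and 72295 with vehicle, the experiment order of Cd34, Ly6a, Scara5 and Smoc2. Of these 20 genes, 19 differed among experiments, 18 were higher in experiment 2 than in experiment 1 and 15 ran in the order 2, 3, 1 in both arms. Of all genes, 48.6% differed among experiments, 52.7% between experiments 2 and 1 in either direction, and 20.8% ran in that order. Pecam1, an endothelial adhesion molecule, had 1972, 15874 and 9348 normalized counts with TWEAK, against 2253, 20068 and 10522 with vehicle. The sums of the 15 macrophage genes were highest in experiment 1 and lowest in experiment 3. They were 69406, 10703 and 4083 with TWEAK in experiments 1, 2 and 3, against 72050, 10321 and 3808 with vehicle. All 15 differed among experiments. Of these, 14 were lower in experiment 2 than in experiment 1, and all 15 were lower in experiment 3 than in experiment 1. Between experiments 3 and 1, 9.70% of all genes differed in either direction. No gene of the table was at 0. The part of these cells in the experiment differences of the markers was not tested, and in bulk RNA fewer cells of a type and less RNA per cell cannot be told apart.

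Between treatments, 1 of the 20 endothelial genes and none of the 15 macrophage genes was called in the blocked limma fit. The shares of all genes were 8.11% called and higher and 5.55% called and lower, and the lists' counts stand beside these. All 12 smooth muscle genes, markers of the labelled cell type, were in the table. Of these 12, 9 fell and 2 rose, and they summed to between 222538 and 295838 normalized counts with TWEAK, against between 379885 and 410195 with vehicle. Acta2, smooth muscle alpha-actin and the most abundant of them, had 124067 ± 20128 with TWEAK and 179848 ± 13225 with vehicle (SD, n = 3 each). Of the lists for other cells, 4 of 7 pericyte genes, 2 of 7 Schwann and neural genes, 1 of 5 adipocyte genes and 2 of 6 mesothelial genes fell and none rose, and none of 4 genes of blood progenitors and T cells was called. The pericyte genes summed to between 65864 and 93547 with TWEAK, against between 74545 and 112528 with vehicle, and the Schwann and neural genes to between 24956 and 39456 with TWEAK, against between 36026 and 58534 with vehicle. The adipocyte, mesothelial and blood lists each summed to at most 8199 in every library. Higd1b, Adipoq, Plin1, Lep, Krt8, Lrrn4, Cd3e and Cd3g were not analysed here. The part of these shifts in the changes of Dpt, Pi16 and Gsn was not tested.

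A wider list of 40 fibroblast genes, all in the table, was read beside the markers. With TWEAK 2 rose, 9 fell and 29 did not pass, with a median log2 fold change of -0.19 against 0.02 over all genes. Of all genes 8.11% were called and higher and 5.55% called and lower. Pdgfra, the platelet-derived growth factor receptor that marks fibroblasts broadly, rose most. It had 13584, 31936 and 27321 normalized counts with TWEAK in experiments 1, 2 and 3, against 7741, 9512 and 8136 with vehicle, so the groups did not overlap (log2 fold change 1.44, SE 0.20, limma adjusted p = 0.0124). Fbln1, which encodes the matrix protein fibulin-1, was the other gene that rose (0.41). Among the falls were Cxcr7 (-0.77), a scavenging chemokine receptor now called Ackr3, Cygb (-0.74), the oxygen-binding protein cytoglobin, Sfrp1 (-0.58), a secreted Wnt antagonist, Tcf21 (-0.50), a transcription factor of the fibroblast lineage, Igfbp6 (-0.45), which binds insulin-like growth factors, and Fbln2 (-0.28), the matrix protein fibulin-2. The count of the list called depended on the setting, and was 0 without the block, and 3, 19 and 2 without experiments 1, 2 and 3. Of all genes 2039 were called, against 3 without the block, and 695, 3902 and 666 without experiments 1, 2 and 3.

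Of the same 40 genes, 29 differed among experiments, against 48.6% of all genes, and 15 did without experiment 1. Tcf21, Tnxb, which encodes the matrix protein tenascin-X, Ogn, the proteoglycan osteoglycin, and Fbln1 had the smallest adjusted p. Tcf21 had 85.3, 567 and 284 normalized counts with TWEAK in experiments 1, 2 and 3, against 122, 830 and 388 with vehicle. Ogn ran the other way, with 12742, 1472 and 4009 with TWEAK, against 14971, 1113 and 4774 with vehicle. Fibroblast genes therefore did not all share the experiment order of Cd34.

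Over the 6 libraries, which share 3 experiments, the log2 levels of Cd34, Ly6a, Scara5, Smoc2 and Clec3b correlated with each other at a Pearson r between 0.84 and 0.99. Pi16 and Gsn correlated at 0.99, and Dpt with each of them at -0.80, in each case as a description with no test. The genes most like each marker over the same 6 libraries were sought among those with a mean of at least 100 normalized counts. Unnamed gene models, with symbols that start with Gm and a digit or end in Rik, were left out. The most alike were Oacyl, Rab11fip1 and Plekha4 for Dpt (r from 0.992 to 0.994), and Atp8b2, Gatsl3 and Parp3 for Pi16 (0.995 to 0.998). For Gsn they were Six5, Ccdc64 and Hspb6 (0.991 to 0.992). For Cd34 they were Vstm2a, Plekhm1 and Kank3 (0.998 to 0.999), for Ly6a Foxf2, Mesdc1 and Abhd4 (0.996 to 0.999), and for Smoc2 Rbpms, Gltscr2 and Extl3 (all 0.996). Clpb, Usp22 and Slc35c1 were most like Scara5 (0.992 to 0.998), and Exd2, Fam73b and Ppl most like Clec3b (0.983 to 0.995). A high r does not mean a difference of like size. The log2 range among experiments was 0.19 for Clpb, 0.24 for Usp22 and 0.28 for Slc35c1, against 2.58 for Scara5. It was 0.14 for Exd2, 0.29 for Fam73b and 2.55 for Ppl, against 2.06 for Clec3b. Of these 24 genes, Oacyl rose, and Atp8b2, Gatsl3, Six5 and Hspb6 fell, with TWEAK in the blocked limma fit. In that fit 13.7% of all genes were called. The 24 were picked for likeness over the same libraries, so their calls are not independent of those of the markers.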

How the data were processed

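Total RNA libraries were made with a stranded kit, per the labels. Per the file headers, the deposited table has 6 columns of normalized counts (a signal that the authors obtained by scaling reads per gene), and the authors' mean, log2 fold change with its standard error, Wald statistic (a score), p-value and adjusted p-value. Columns named Basal were read as vehicle and those named TW as TWEAK. DESeq2 was used, per the submitters' processing notes. Aligner, counter, strand setting, annotation and genome build were not given in the sources used here. Overlapping or antisense genes, and Ly6a with its relatives in the Ly6 family, are therefore uncertain. In each column 100% of values below 500 reads were whole multiples of the value of 1 read (tolerance 0.01), so reads were recovered.

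Values were tested as log2(normalized count + 1) with limma 3.58.1 in R 4.3.3 (empirical Bayes with trend, robust). All 14927 genes passed the filter, a mean of 1 or more. The model held treatment and experiment and was also tested on simulated data. Libraries that share an experiment number deviated together from their group means (r = 0.879, 0.868 and 0.734, against -0.126 or less for other pairs), so the numbers, which are experiments in the file headers, pair the libraries. DESeq2 1.42.0, edgeR 4.0.16 and limma-voom on the recovered reads were alternatives.

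The genes named were the 8 markers, up to 6 and 4 genes of the wider list with the smallest adjusted p in the treatment and experiment comparisons, the 3 genes most like each marker, and the most abundant genes of each list of other cells, of which Acta2 and Pecam1 are given. The markers, lists and tests were chosen with earlier results of these data known. Older symbols were matched through RefSeq. The NF-kB and interferon-response motifs were searched in forms shortened by 1 letter after a longer form had been searched.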

Additional observations from a re-analysis of the deposited data

How the results depend on the processing

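Of the 8 markers, 3 were called between treatments, and this was 0 with no replicate block and 2 to 4 in the other alternatives, leaving out an experiment included (2 to 4). The count differing among experiments, 5, was 7 with GC and length correction, which added Gsn and Clec3b, and 2 to 6 with an experiment left out. Of the wider fibroblast list, 11 were called between treatments, against 0 with no replicate block, 4 with no trend and no robust fit, 17 with DESeq2, 21 with GC and length correction, and 2 to 19 with an experiment left out. Its count differing among experiments, 29, was 13 with treatment out of the model and 15 to 24 with an experiment left out. Of all genes, 2039 were called between treatments, against 3 with no replicate block (1480 at an unadjusted p under 0.05), 1225 with no trend and no robust fit, 4062 with GC and length correction, and 666 to 3902 with an experiment left out. Among experiments 7251 differed, against 2771 with treatment out of the model and 2763 to 6054 with an experiment left out. The log2 fold change turned sign for Clec3b without experiment 2 and for Scara5 without experiment 3, and ran from -0.68 to 0.35 and from -0.058 to 0.57 with an experiment left out. Fits without an experiment rest on fewer libraries, and the cause of the other shifts was not tested. Clec3b was not tested at a mean of at least 50. At 8 to 79 reads per library, counting error adds to the spread of Clec3b.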
